A study of Homo sapiens with 6 samples.

Results

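S100A8 and S100A9, which encode the subunits of calprotectin, were measured together with 7 other S100 genes in Molm13-Cas9, a line of human leukemic monoblasts from acute myeloid leukemia that carries an MLL rearrangement and stably expresses the Cas9 nuclease. The members were the rows of the deposited count table with the symbols S100A8, S100A9, S100A12, S100A4, S100A6, S100A10, S100A11, S100A13 and S100P, which are 9 of 19845 gene symbols and 9 of the 21 symbols of single S100 genes in the table. S100A8 and S100A9 were chosen by their measured values, which were higher in sgCOX4I1 libraries, so their differences between groups are given as a description, without a test. RNA was sequenced from 6 cultures, of which 3 carried sgCtrl guides against non-essential sequences and 3 carried sgCOX4I1 guides against COX4I1, a nuclear-encoded subunit of mitochondrial Complex IV, each guide being a different sequence. All cells carried Cas9, a lentiviral guide vector and puromycin selection, and each culture is a transduced population of 1 cell line rather than a clone.

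S100 proteins are small proteins with paired EF-hand calcium-binding sites that usually act as dimers. S100A8 and S100A9 form a heterodimer that is abundant in the cytosol of neutrophils and monocytes, binds zinc and manganese, delivers arachidonic acid to the phagocyte NADPH oxidase and, once released, is known to signal through TLR4 and the receptor AGER (RAGE). S100A12 is a granulocyte protein related to them, S100A4 and S100A6 bind cytoskeletal and signaling proteins, S100A10 and S100A11 bind annexins, S100A13 takes part in the release of proteins without a signal peptide, and S100P is a secreted member that also binds ezrin.

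In GRCh38 with the GENCODE 44 annotation, 8 of the 9 genes lie on chromosome 1, and S100P lies on chromosome 4 from 6693878 to 6697170. S100A9 occupies positions 153357854 to 153361023 of chromosome 1 on the plus strand, and S100A8 the minus strand from 153390032 to 153391073. S100A12, on the minus strand from 153373711 to 153375621, sits between them, 12.7 kb from S100A9 and 14.4 kb from S100A8. S100A6 (153534599 to 153536244), S100A4 (153543613 to 153550136) and S100A13 (153618787 to 153631360) follow in the same cluster, whereas S100A10 (151982915 to 151993859) and S100A11 (152032506 to 152047907) lie apart from it, S100A11 being 1310 kb from S100A9.

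The promoter sequences of S100A8 and S100A9 are shown because these genes were chosen by their values, that of S100A12 because it lies between them, and that of S100A11 because it was the member called among those not chosen by their values. Each is the 250 bases before the RefSeq start in GRCh38.p14, written 5′ to 3′ on the strand of the gene. The windows are chr1:153391074-153391323 (minus strand) for S100A8, chr1:153357604-153357853 (plus) for S100A9, chr1:153375622-153375871 (minus) for S100A12 and chr1:152037005-152037254 (minus) for S100A11. Capitals mark matches to any of 6 motifs on either strand.
S100A8 promoter: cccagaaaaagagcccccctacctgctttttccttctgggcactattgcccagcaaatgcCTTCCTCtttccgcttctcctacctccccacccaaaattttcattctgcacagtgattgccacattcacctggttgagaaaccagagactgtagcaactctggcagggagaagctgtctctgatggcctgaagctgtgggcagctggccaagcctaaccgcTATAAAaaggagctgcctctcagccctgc
S100A9 promoter: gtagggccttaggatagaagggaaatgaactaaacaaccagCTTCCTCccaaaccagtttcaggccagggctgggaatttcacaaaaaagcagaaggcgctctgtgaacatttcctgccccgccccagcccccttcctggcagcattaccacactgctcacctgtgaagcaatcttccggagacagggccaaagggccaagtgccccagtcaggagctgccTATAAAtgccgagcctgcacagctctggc
S100A12 promoter: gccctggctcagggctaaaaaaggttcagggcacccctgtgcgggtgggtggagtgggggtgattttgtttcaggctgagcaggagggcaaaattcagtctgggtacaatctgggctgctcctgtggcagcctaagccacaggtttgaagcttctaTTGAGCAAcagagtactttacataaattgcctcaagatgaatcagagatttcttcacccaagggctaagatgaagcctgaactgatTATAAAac
S100A11 promoter: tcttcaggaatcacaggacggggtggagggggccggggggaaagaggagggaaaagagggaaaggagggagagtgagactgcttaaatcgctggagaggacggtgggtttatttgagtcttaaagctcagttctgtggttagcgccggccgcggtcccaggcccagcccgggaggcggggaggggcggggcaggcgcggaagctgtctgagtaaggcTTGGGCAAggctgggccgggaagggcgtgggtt
The motifs searched were TTGCNNAA for C/EBP factors, GAGGAAG for PU.1, TGATGNAA for the element of ATF4 with C/EBP, TGACNNNGC for the antioxidant response element, TTCNNNGAA for STAT factors and TATAAA for the TATA box. They occurred in 9.05%, 11.2%, 3.14%, 10.9%, 6.57% and 10.7% of the 35116 RefSeq promoters searched over the same length. Both S100A8 and S100A9 held TATAAA from -29 to -24 and CTTCCTC, the reverse complement of the PU.1 motif, the latter from -190 to -184 in S100A8 and from -209 to -203 in S100A9. S100A12 held TATAAA nearer its start, from -8 to -3, and a C/EBP match from -94 to -87. S100A11 held a C/EBP match from -33 to -26 and no TATAAA. Of the 3 RefSeq starts of S100A8, the window used the one at the GENCODE start, while the RefSeq start of S100A11 lies 10903 bases from the outermost GENCODE start. A match is a description of letters and not a measured site.

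The libraries held from 17241014 to 30861943 counts, and values are given as CPM, the counts scaled to a common library size after TMM normalization. The targeted COX4I1 mRNA was 513, 502 and 463 CPM in sgCtrl #1, #2 and #3 and 132, 378 and 133 with sgCOX4I1 #1, #2 and #3, so sgCOX4I1 #2 kept 76.7% of the sgCtrl mean (log2 fold change -1.21 with a standard error of 0.29, and adjusted p = 0.0512 in the quasi-likelihood test of edgeR). Without sgCOX4I1 #2 the log2 fold change of COX4I1 was -1.90 (adjusted p = 3.4e-06 in edgeR), and over 12 alternatives its adjusted p ranged from 3.4e-06 to 0.273. Of the 6 identity markers of the line, CD33, FLT3, PTPRC, MEIS1, HOXA9 and CD4, all 6 were detected, with PTPRC at 261 ± 14.8 CPM and CD4 at 235 ± 11.9 in sgCtrl (SD, n = 3). Of 10 markers of lymphoid, erythroid, platelet, epithelial and stromal cells, 6 had 0 counts in all libraries, among them CD3D and EPCAM, and the 10 together summed to between 0.436 and 1.03 CPM in sgCtrl and 0.465 and 0.757 in sgCOX4I1.

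S100A8 mRNA was 26.1, 33.5 and 29.4 CPM in sgCtrl #1, #2 and #3 and 53.6, 49.8 and 52.6 with sgCOX4I1 #1, #2 and #3. All 3 sgCOX4I1 libraries lay above all 3 sgCtrl libraries, and the 3 sgCOX4I1 values differed from each other by less than the sgCtrl values did, with a coefficient of variation of 3.82% against 12.5%. The means were 29.6 ± 3.71 and 52.0 ± 1.99 CPM (SD, n = 3 libraries each), a 1.76-fold higher level in sgCOX4I1, which is 0.81 on the log2 scale with a standard error of 0.097.

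S100A9 mRNA was 48.8, 61.0 and 58.5 CPM in the sgCtrl libraries and 86.6, 98.4 and 98.5 CPM in the sgCOX4I1 libraries, again without overlap. The means were 56.1 ± 6.45 and 94.5 ± 6.82 CPM (SD, n = 3 each), a 1.68-fold higher level, or 0.75 on the log2 scale with a standard error of 0.094. Among the 11861 genes tested, 116 had a larger log2 fold change than S100A8 and 147 a larger one than S100A9, which places both near the upper end of the ranking by which they were chosen. None of the 8 members tested reached a 2-fold difference, a size that together with an adjusted p under 0.05 was reached by 0.202% of the genes tested (0.135% for higher values alone).

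**Figure D1:**
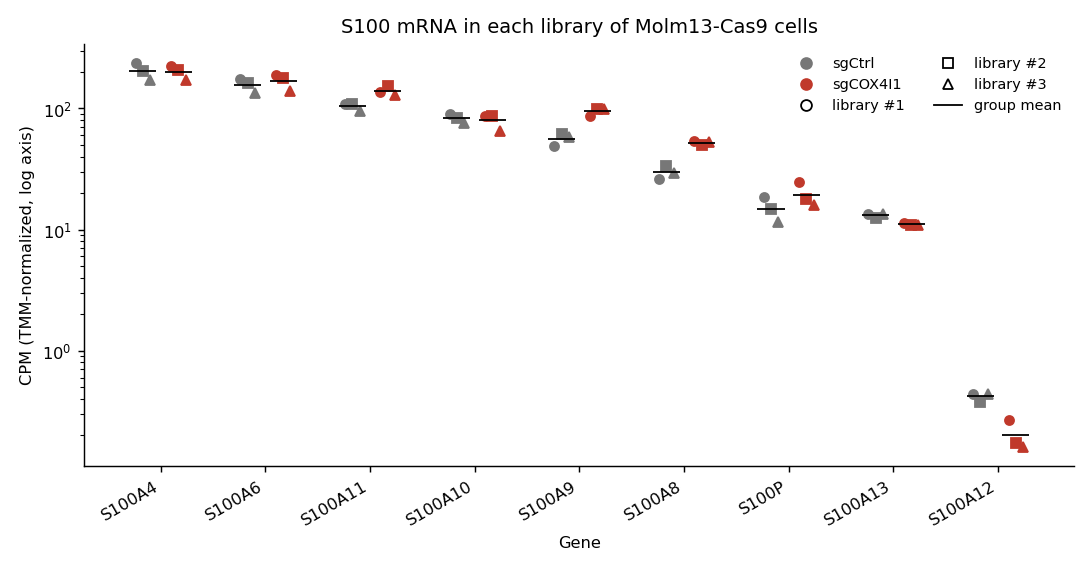
CPM of each S100 gene (log axis) in the 3 sgCtrl (gray) and 3 sgCOX4I1 (red) libraries, with marker shapes for library #1, #2 and #3 and a black line at each group mean. S100A8, S100A9 and S100A11 have all red points above all gray points, S100A4 and S100A6 overlap, and S100A12 lies under 0.5 CPM in every library.

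The proportion of the mRNAs of both subunits overlapped between groups. The S100A8 to S100A9 ratio of CPM was 0.534, 0.548 and 0.503 in sgCtrl #1, #2 and #3 and 0.619, 0.506 and 0.534 in sgCOX4I1 #1, #2 and #3. Per kb of exon, S100A9 was at 98.0 ± 11.3 CPM and S100A8 at 33.3 ± 4.16 in sgCtrl (SD, n = 3), so S100A9 was the more abundant mRNA of the pair in each library. Together they made up 10.4% to 14.9% of the summed CPM of the 9 members in sgCtrl libraries and 17.3% to 22.1% in sgCOX4I1 libraries, while the other 7 members summed to 576 ± 71.7 and 621 ± 76.8 CPM (SD, n = 3 each). In bulk RNA, more cells expressing a gene and more RNA per cell cannot be told apart.

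The sgCOX4I1 libraries were not ordered in S100A8 plus S100A9 by the COX4I1 mRNA that was left. Their summed CPM was 140, 148 and 151 in sgCOX4I1 #1, #2 and #3, against 74.9, 94.5 and 87.9 in sgCtrl #1, #2 and #3. The sgCOX4I1 #2 library, with COX4I1 at 378 CPM, thus lay between the libraries with COX4I1 at 132 and 133 CPM, at 1.73 times the sgCtrl mean beside 1.64 and 1.76 times. With 3 libraries this is a description of single cultures and was not tested. The counts hold COX4I1 mRNA and not its protein, so this order does not rank the cultures by loss of the protein. The paper probed the protein by Western blot in cells with 3 sgCtrl and 3 sgCOX4I1 guides. It reports that COX4I1 protein was reduced with sgCOX4I1. Those blots were not matched to single libraries here. Whether S100A8 and S100A9 follow the loss of COX4I1 protein was not tested.

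**Figure D2:**
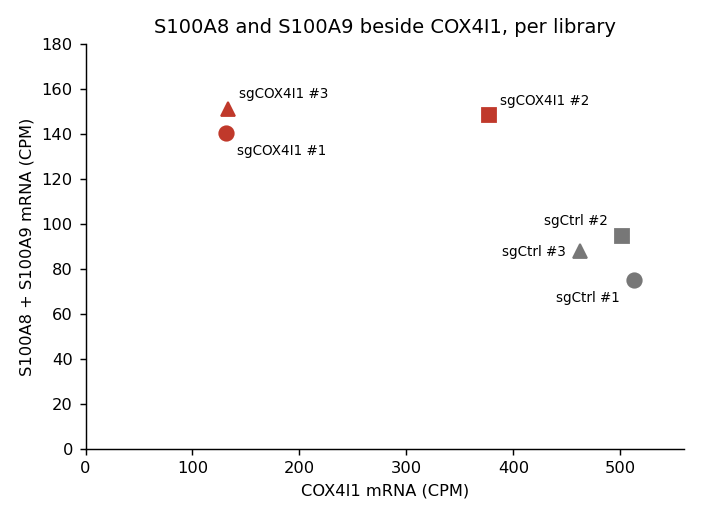
Summed CPM of S100A8 and S100A9 (y axis) against COX4I1 CPM (x axis) in each library, both axes from 0. The 3 sgCOX4I1 libraries (red) lie between 140 and 151 CPM on the y axis, and the 3 sgCtrl libraries (gray) between 74.9 and 94.5. On the x axis, sgCOX4I1 #2 has 378 CPM of COX4I1 mRNA, which is not a measure of the protein.

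The test across all genes, the quasi-likelihood test of edgeR adjusted by Benjamini-Hochberg over 11861 genes, was read for the members that were not chosen for their rise. Of these 7, 6 passed the expression filter, and 1 of the 6 had an adjusted p under 0.05, against 247 of all genes tested, or 2.08% (1.06% higher and 1.02% lower), so that 1 of 6 is too small a count to set apart from the background. Libraries of both groups were fully separated for 2 of these 6, S100A11 (higher) and S100A13 (lower), where the share over all genes tested was 21.6% (11.2% higher and 10.4% lower). The median log2 fold change of the 6 was 0.047, beside -0.0023 over all genes tested.

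S100A11, which pairs with annexin A1 and takes part in membrane repair, rose in sgCOX4I1 libraries. Its values were 108, 109.7 and 95.1 CPM in sgCtrl #1, #2 and #3 and 136, 154 and 128 with sgCOX4I1 #1, #2 and #3, without overlap between groups. The means were 104 ± 8.04 and 140 ± 13.1 CPM (SD, n = 3 each), or 1.34-fold, which is 0.42 on the log2 scale with a standard error of 0.087 (adjusted p = 0.0278 from the edgeR test). The call rested on single libraries, since the adjusted p from the same test was 0.144 without sgCtrl #2, 0.0556 without sgCtrl #3 and 0.137 without sgCOX4I1 #2, with log2 fold changes of 0.46, 0.36 and 0.34. Annotated pseudogenes named after S100A11 number 8, so reads of S100A11 may have been divided among them in counting.

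S100A13 and S100P, members linked to secretion, had differences in opposite directions that did not pass the test. S100A13 was 13.5, 12.4 and 13.5 CPM in sgCtrl and 11.3, 10.9 and 11 in sgCOX4I1 libraries, all lower, with a log2 fold change of -0.25 (95% interval -0.50 to 0.0062, adjusted p = 0.301 from the edgeR test). Of its exonic bases, 24.2% also belong to an unnamed gene on the same strand and 10.6% to S100A1 on the other strand, and the strand setting of the counting is not given in the sources used here. S100P was 18.5, 14.7 and 11.5 CPM in sgCtrl and 24.5, 17.7 and 15.8 in sgCOX4I1 libraries, where the groups overlapped, with a log2 fold change of 0.38 (95% interval -0.0087 to 0.77, adjusted p = 0.3003 from the same test). With 1 library left out, the log2 fold change of S100P ranged from 0.18 (without sgCOX4I1 #1) to 0.57 (without sgCtrl #1).

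S100A4, S100A6 and S100A10, the most abundant members together with S100A11, showed small differences between groups beside their spread. S100A4, which binds non-muscle myosin, was 237, 203 and 171 CPM in sgCtrl #1, #2 and #3 and 224, 209 and 172 in sgCOX4I1 #1, #2 and #3, with a log2 fold change of -0.013 (95% interval -0.26 to 0.24, adjusted p = 0.970 from the edgeR test). S100A6 was 176, 161 and 134 CPM in sgCtrl and 188, 179.7 and 139 in sgCOX4I1, with a log2 fold change of 0.11 (95% interval -0.15 to 0.36, adjusted p = 0.694). S100A10, the partner of annexin A2, was 90.4, 83.1 and 75.9 CPM in sgCtrl and 86.9, 86.9 and 65.6 in sgCOX4I1, with a log2 fold change of -0.062 (95% interval -0.29 to 0.17, adjusted p = 0.814). A 2-fold change lies outside each of these 3 intervals.

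For several other members the libraries of a group were ordered otherwise than for S100A8 and S100A9. For S100A4, S100A6, S100A10, S100A11 and S100P the lowest library was #3 in both groups, and for S100A4, S100A6 and S100P the highest was #1 in both. In S100P the highest library was 1.61 times the lowest in sgCtrl and 1.55 times in sgCOX4I1, a coefficient of variation of 23.7% and 23.6%, against medians of 8.70% and 8.05% over all genes tested. S100A8 and S100A9 were lowest in #1 among sgCtrl libraries. Among sgCOX4I1 libraries S100A9 was again lowest in #1, whereas S100A8 was lowest in #2 and highest in #1. The labels name no batch for the numbers, and the sgCtrl and sgCOX4I1 guides of 1 number are different sequences.

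**Figure D3:**
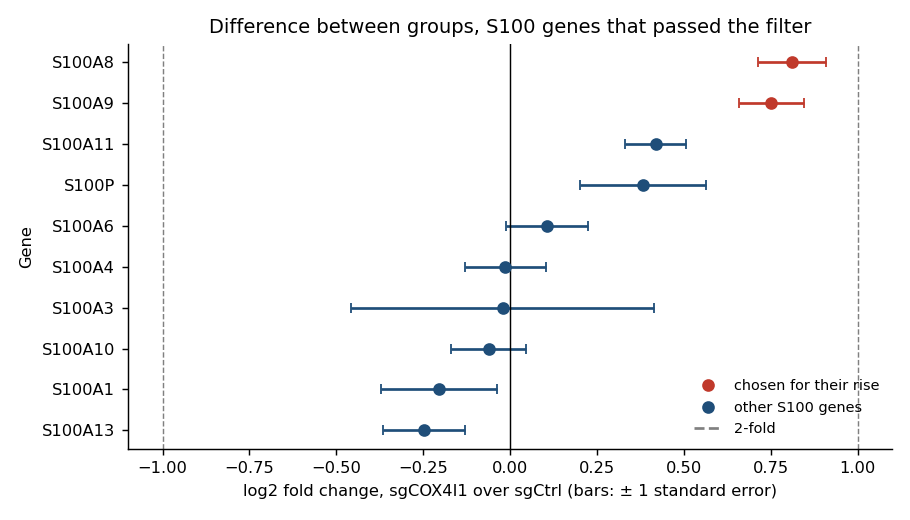
Log2 fold change of sgCOX4I1 over sgCtrl (x axis, bars are ± 1 standard error) for the 8 members and 2 other S100 genes that passed the expression filter, with dashed lines at a 2-fold difference. S100A8 and S100A9 (red, chosen for their rise) lie at 0.81 and 0.75, S100A11 at 0.42, and the other points between -0.25 and 0.38.

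S100A12, the gene between S100A8 and S100A9, had 8, 7 and 9 counts in sgCtrl #1, #2 and #3 and 6, 3 and 5 counts in sgCOX4I1 #1, #2 and #3, too few for the expression filter. These are 0.436, 0.3801 and 0.442 CPM in sgCtrl and 0.267, 0.174 and 0.1599 in sgCOX4I1, so every sgCOX4I1 library was lower. With no filter on low counts its log2 fold change was -1.05 with a standard error of 0.70 (adjusted p = 0.520 in edgeR). No difference was called at this depth, and its size was poorly determined. Levels per kb of exon differed widely within this stretch, at 98.0 CPM for S100A9 and 0.865 for S100A12 in sgCtrl.

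Of the 12 other S100 genes listed, S100A1 and S100A3 passed the filter and neither was called. S100A1 was 7.47, 6.08 and 5.65 CPM in sgCtrl and 5.75, 5.46 and 5.44 in sgCOX4I1 (log2 fold change -0.20, adjusted p = 0.575), and S100A3 was between 0.416 and 1.56 CPM (log2 fold change -0.022, adjusted p = 0.987, both from the edgeR test). S100A7A, S100A7L2, S100G and S100Z had 0 counts in all 6 libraries, which allows levels of up to 0.0972 to 0.174 CPM depending on the library (3 counts, counting error only). The remaining 6 had at most 15 counts in any library. Per kb of exon, the members in sgCtrl ranked S100A4 (215 ± 34.7 CPM), S100A6 (162 ± 22.2) and S100A11 (161 ± 12.4), whose libraries overlapped, then S100A9 (98.0 ± 11.3) and S100A10 (82.1 ± 7.19), which overlapped, S100A8 (33.3 ± 4.16) and S100P (31.6 ± 7.47), which also overlapped, S100A13 (5.92 ± 0.288) and S100A12 (0.865 ± 0.0705), with SD over 3 libraries. In sgCOX4I1 libraries S100A11 was at 215 ± 20.2, S100A4 at 213 ± 28.0, S100A6 at 174 ± 27.2 and S100A9 at 165 ± 11.9.

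Within 500 kb of the cluster that runs from S100A9 to S100A1, 13 other protein-coding genes were tested. Of these, 3 had a log2 fold change above 0 and 10 below 0, with a median of -0.11 and a highest value of 0.19. Over all genes tested, 49.45% were above 0 and the median was -0.0023. The direction of these neighbours as a group was not tested. SLC27A3, a fatty acid transport protein named here after its values were seen, was the 1 neighbour called, where the share over all genes tested was 2.08%. It was at 45.2, 48.0 and 51.9 CPM in sgCtrl libraries against 35.6, 38.4 and 36.7 with sgCOX4I1 (log2 fold change -0.39, adjusted p = 0.0338 from the edgeR test).

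The genes whose log2 CPM over the 6 libraries was most like the mean of S100A8 and S100A9, among the 8994 genes that averaged 10 CPM or more, were THEM4 (Pearson's r = 0.998), NDUFA10 (0.995), the carboxypeptidase M gene (0.993), RAB3GAP2 (0.993) and LONP1 (0.991). LONP1, the mitochondrial matrix protease, was 289.7, 317 and 307 CPM in sgCtrl #1, #2 and #3 and 373.3, 391.5 and 375.7 in sgCOX4I1, with the lowest value in sgCtrl #1, as for S100A8 and S100A9. Among the members the likeness was 0.860 for S100A11, -0.974 for S100A13 and between -0.320 and 0.433 for S100A4, S100A6, S100A10 and S100P. All of these are descriptions over 6 libraries that share the difference between groups.

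Transcription factors known to act on S100A8 and S100A9 were examined with a list of 16 genes, all of which were tested. One was called higher and none lower, 11 had a log2 fold change above 0, and the median was 0.11. CEBPB, a C/EBP factor, rose from 40.9, 39.9 and 47.9 CPM with sgCtrl to 53.7, 81.6 and 64.2 in sgCOX4I1. The log2 fold change of CEBPB was 0.63 (SE 0.13, adjusted p = 0.0259 from the edgeR test). Its adjusted p ranged from 0.00038 to 0.220 over 12 alternatives and missed the threshold without sgCtrl #2, sgCOX4I1 #2 or sgCOX4I1 #3. Of the exonic bases of CEBPB, 12.6% are shared with an antisense gene. CEBPA and SPI1 (PU.1) were at 849 and 351 CPM in sgCtrl and 799 and 338 in sgCOX4I1, with log2 fold changes of -0.089 and -0.055. CEBPE, another C/EBP factor of the list, was 1.635, 1.683 and 3.292 CPM in sgCtrl and 1.292, 0.7557 and 1.183 in sgCOX4I1, all lower. The log2 fold change of CEBPE was -1.01 (SE 0.35, adjusted p = 0.154 from the edgeR test), and it was not called.

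Receptors and adaptors that extracellular S100 proteins use were detected in full, 13 of 13, with 0 called higher and 1 lower and a median of 0.15 on the log2 scale. AGER, the RAGE receptor, fell from 21.1, 25.6 and 22.9 CPM in sgCtrl to 14.8, 15.9 and 17.5 in sgCOX4I1 (log2 fold change -0.53, SE 0.11, adjusted p = 0.0333 from the edgeR test), and the call was lost without sgCtrl #2 or any 1 of the 3 sgCOX4I1 libraries. TLR4, its co-receptor LY96 and CD14 were between 1.30 and 5.31 CPM in every library, with log2 fold changes of 0.44, 0.41 and 0.46 and overlapping groups. Of the intracellular partners, 11 of 13 were tested and 0 were called by edgeR, DESeq2 or limma-voom (2 at an unadjusted p under 0.05 in edgeR), with a median of 0.0094. Their most abundant genes were AHNAK, which binds the S100A10 and annexin A2 complex, at 828 and 867 CPM in sgCtrl and sgCOX4I1, and MYH9, the myosin bound by S100A4, at 774 and 746 CPM.

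Of the 7 subunits and GTPases of the NADPH oxidase, 0 were called by edgeR, DESeq2 or limma-voom, although 6 had an unadjusted p under 0.05 in edgeR. Their median was -0.13, with CYBA at 392.2 and 339 CPM and RAC2 at 299 and 255 CPM in sgCtrl and sgCOX4I1. Of 10 genes of inflammatory products, 7 were tested, 1 was called higher and 1 lower. IL1B was 3.92, 3.96 and 6.19 CPM in sgCtrl and 8.998, 8.31 and 8.47 in sgCOX4I1 (log2 fold change 0.87, adjusted p = 0.0338), whereas TNF fell from 104, 112 and 111 CPM to 89.5, 77.2 and 79.3 (log2 fold change -0.41, adjusted p = 0.0203, both from the edgeR test). Both calls were lost without sgCtrl #2, sgCOX4I1 #2 or sgCOX4I1 #3, and that of IL1B also without sgCOX4I1 #1. Of 10 genes of zinc handling, 7 were above 0 and the median was 0.28 on the log2 scale. SLC30A1, a zinc exporter, was the 1 called by edgeR, at 32.4, 26.7 and 28.1 CPM in sgCtrl and 36.7, 40.7 and 41.3 in sgCOX4I1 (log2 fold change 0.45, adjusted p = 0.0341 from the same test), and the call was lost without sgCtrl #2, sgCtrl #3, sgCOX4I1 #2 or sgCOX4I1 #3. MT1E, a metallothionein, was 6.87, 5.70 and 4.23 CPM in sgCtrl and 11.9, 8.60 and 8.35 in sgCOX4I1 (log2 fold change 0.78, adjusted p = 0.0590 in edgeR and 0.0107 in DESeq2).

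**Figure D4:**
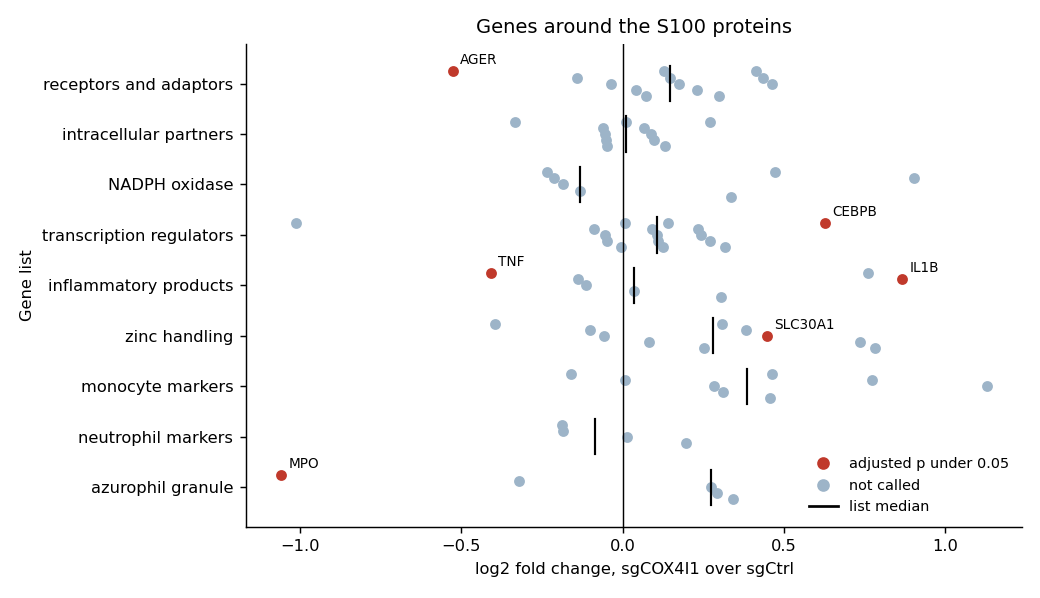
Log2 fold change of sgCOX4I1 over sgCtrl (x axis) for each tested gene of 9 lists (rows), in red where the adjusted p was under 0.05 and in blue where it was not, with a black line at each list median. CEBPB, IL1B and SLC30A1 are the red points above 0, and AGER, TNF and MPO those below 0.

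Markers of monocytes and neutrophils and genes of the azurophil granule were read beside S100A8 and S100A9. Of 10 monocyte markers, 8 were tested and 7 of them were above 0, the median being 0.38 on the log2 scale. In edgeR 0 were called, with 2 at an unadjusted p under 0.05, whereas limma-voom called LYZ. The summed level of the 10 was 1358 to 2378 CPM in sgCtrl and 2236 to 3386 in sgCOX4I1, most of it LYZ (lysozyme), at 1149, 1520 and 2100 CPM in sgCtrl and 2026, 3022 and 3104 in sgCOX4I1 (log2 fold change 0.77, adjusted p = 0.0534 from the edgeR test), of whose exonic bases 34.7% are shared with an unnamed gene on the other strand. CD68 was at 116 and 141 CPM, and VCAN had 0 counts in all libraries. Of 12 neutrophil markers, 4 were tested and 0 called by edgeR, DESeq2 or limma-voom (1 at an unadjusted p under 0.05 in edgeR), with a median of -0.085 and a summed level of 194 to 267 CPM in sgCtrl and 189 to 236 in sgCOX4I1, most of it CSF3R (188 and 166 CPM) and BPI (44.9 and 39.5 CPM). The neutrophil genes CEACAM8, FCGR3B, OLFM4 and PGLYRP1 had 0 counts in all libraries. Of 5 azurophil granule genes, all tested, 3 had a log2 fold change above 0 and 2 below, with a median of 0.28. Of these, edgeR called MPO (myeloperoxidase), which fell from 228, 219 and 235 CPM to 117, 105 and 106 (log2 fold change -1.06, adjusted p = 1.6e-05 from the edgeR test), and DESeq2 also called AZU1 (log2 fold change -0.32) and CTSG (0.34). The part of these markers in the values of S100A8 and S100A9 was not tested.

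With each library left out in turn, S100A8 and S100A9 kept their direction. Both were chosen for their rise and did not overlap between groups, so this direction was fixed and is not support. The log2 fold change of S100A8 lay between 0.73 (without sgCtrl #1) and 0.91 (without sgCtrl #2), and that of S100A9 between 0.66 (without sgCtrl #1) and 0.82 (without sgCtrl #2). Of the 6 other members tested, S100A6, S100A11 and S100P stayed above 0 and S100A13 below 0 in all 6 of these fits, while S100A4 and S100A10 changed sign. The directions of S100A11 and S100A13, whose groups were fully separated, were likewise fixed.

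**Figure D5:**
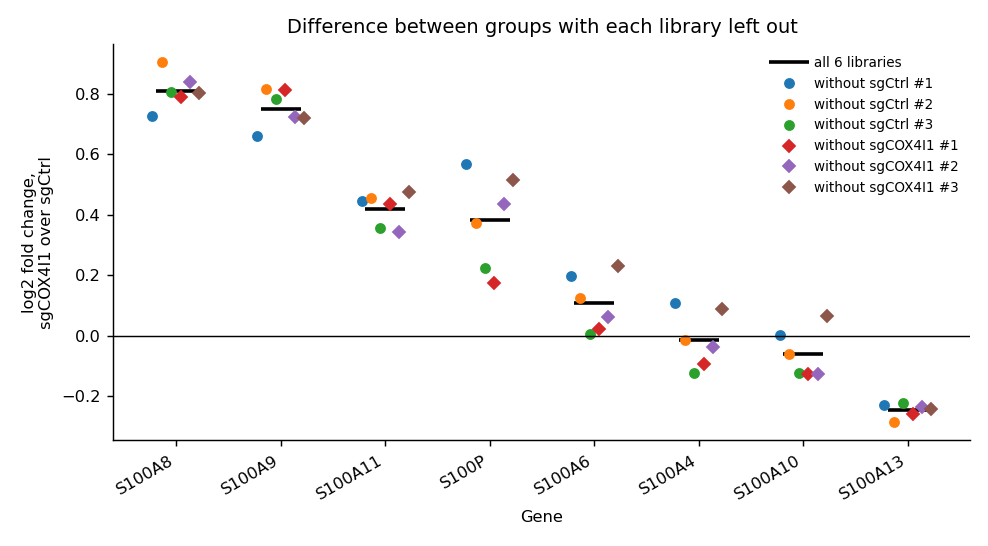
Log2 fold change of sgCOX4I1 over sgCtrl (y axis) for the 8 members tested, with all 6 libraries (black bars) and with each library left out (circles for sgCtrl, diamonds for sgCOX4I1). S100A8 stays between 0.73 and 0.91, S100A9 between 0.66 and 0.82 and S100A11 between 0.34 and 0.48, while S100A4 and S100A10 fall on both sides of 0. S100A8 and S100A9 were chosen for their rise, so their direction is not support.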

How the data were processed

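Gene counts came from 3 sgCtrl and 3 sgCOX4I1 cultures of Molm13-Cas9. The authors deposited a table of raw counts, as whole numbers, over 19845 symbols. Column names point to STAR, marked duplicates and HTSeq, and the submitters' processing notes name STAR 2.6.0a and GRCh38, whereas the methods describe Trimmomatic, Bowtie2 and RSEM. Columns were matched to samples by letter (C for sgCtrl, K for the knockout) and number.

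The counts were tested in R 4.3.3 with edgeR 4.0.16, by its quasi-likelihood test on all 6 libraries with no covariate, after TMM scaling and the default expression filter. Benjamini-Hochberg adjustment covered 11861 genes. The test was checked on simulated counts. Calls used an adjusted p under 0.05. Totals of 17241014 to 30861943 counts limit a gene with 0 counts to 0.0972 to 0.174 CPM. Within a group the libraries come from different guides, so p-values measure the spread between such cultures. Their pairs differed by a chi-square per degree of freedom of 10.6 to 26.6, and none was treated as a repeat of another.

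The members and gene lists, written from general knowledge, were chosen with earlier results of these data known. Named were all members, S100 genes that passed the filter, up to 5 called genes of each list (or its 2 most abundant), the 5 genes most like S100A8 and S100A9, and COX4I1. CEBPA, CEBPE, SPI1, TLR4, LY96, CD14, AZU1, CTSG, MT1E and SLC27A3 were added after their values were seen. Alternatives were DESeq2 1.42.0, limma-voom (limma 3.58.1), no TMM, other filters, a replicate block, leaving out each library, and another gene length. Exon lengths and overlaps came from GENCODE 44, which holds 18437 of the symbols.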

Additional observations from a re-analysis of the deposited data

How the results depend on the processing

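Over 96 fits of the 8 tested members under 12 alternatives each, 88 kept their direction and, where a test was given, their side of the threshold. These include 12 fits each of S100A8 and S100A9, which were chosen for their rise and had no test. Their kept direction follows from that choice and is not support. S100A4 changed sign to 0.11 without sgCtrl #1 and 0.089 without sgCOX4I1 #3, and S100A10 to 0.0009 and 0.0645 without the same libraries, within ranges of -0.1234 to 0.1078 and -0.1281 to 0.0645 with 1 library left out. S100A11 lost its call in 3 of these fits. The number of the 7 members called, 1 in the test reported, ran from 0 to 1 with each library left out and was 2 with the replicate block, which added S100P (adjusted p = 0.0198 from edgeR). Across all genes, 247 were called, against 466 with DESeq2, 537 with no filter on low counts and 1408 with the replicate block, and from 24 to 561 with 1 library left out. With a 2-fold threshold, 24 were called, against 33 with DESeq2, 41 with no filter on low counts, 57 with the replicate block and 9 to 50 with 1 library left out. The deviations of same-numbered libraries correlated at 0.382, -0.024 and 0.294 for #1, #2 and #3, so the numbers were not taken as pairs, and the #2 libraries did not correlate best with each other. With 3 libraries a group, an exact permutation test cannot go below p = 0.1.

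Length of the longest transcript in place of all exons raised the sgCtrl level per kb of S100A6 from 162 to 233 CPM and that of S100A4 from 215 to 269.6, and put S100A10 (124) above S100A9 (98.0). S100A12, at 3 to 9 counts a library, was limited by depth.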
